A study of Homo sapiens with 20 samples.

Results

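Collagen genes outside the basement membrane and anchoring types were followed in hTCEpi cells given SPARC. The members are the protein-coding genes named COL, a type number, A and a chain number, with types IV, VII and XVII left out. There are 36 of them among 44 protein-coding collagen genes and 60671 gene identifiers in the count table. hTCEpi is a telomerase-immortalized line of human corneal epithelial cells, so every sample is 1 established line and no donor tissue was measured. The control group received no SPARC (0 µg/ml), and the others received recombinant human SPARC at 0.05, 0.5 or 5 µg/ml in keratinocyte growth medium for 24 hours, 5 samples a group, called here SPARC 0.05, SPARC 0.5 and SPARC 5. Every group shares the same line, medium and incubation. The labels do not say whether the 5 samples of a group came from separate cultures, so p-values measure the spread between these samples, which may be technical.

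Collagens are secreted proteins of 3 chains wound into a triple helix, and the type of chain decides what the helix builds. Fibrillar chains form the fibrils of stroma and cartilage, FACIT chains (fibril-associated collagens with interrupted triple helices) decorate those fibrils, short chains form hexagonal networks, and other types are beaded filaments, membrane-anchored proteins or proteoglycan cores. Epithelium is known chiefly for the types left out here, which make the basement membrane, anchoring fibrils and hemidesmosomes. SPARC is a secreted matricellular glycoprotein that binds collagen.

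Total counts ran from 31955358 to 50112286 a sample. On the second principal component, which held 6.6% of the variance of log2 CPM, SPARC 5 replicate 2 (48.2) and SPARC 5 replicate 5 (−40.1) lay at the 2 ends. The 3 collagen genes that rose at SPARC 5 kept their calls with both left out. Over 10 markers of corneal and stratified epithelium the summed level was 11700 to 12700 CPM in the control samples and 12100 to 12600 CPM at SPARC 5, nearly all of it KRT5, whose mean was 11300 CPM in both groups. Of the 9 tested there, 2 rose at SPARC 5 (KRT14 from 331 to 465 CPM and TP63 from 266 to 283 CPM) and 2 fell (KRT15 from 114 to 53.1 CPM and EPCAM from 86.6 to 69.2 CPM), with the TP63 rise lost when libraries were scaled by their total alone, when no count filter was used or with offsets for G and C content and length. The part of these 4 in the results was not tested. Over all tested genes 7.04% rose and 4.58% fell at SPARC 5. The differentiated corneal keratin KRT12 had 11 counts in all 20 samples. Of 10 markers of corneal stroma and fibroblasts, PDGFRA had 1 count in all, LUM 4, DCN 23 and KERA 0, and the summed level was 7.49 to 11.0 CPM over all samples. Of 6 tested markers of that list, 0 rose or fell at any dose by edgeR's quasi-likelihood test. By unadjusted p under 0.05, 2 were higher at SPARC 5. These were VIM (from 0.138 to 0.386 CPM, adjusted p = 0.0992) and FBN1 (from 1.95 to 2.7 CPM, adjusted p = 0.155). VIM had 198 counts in all 20 samples. In bulk RNA such as this, fewer cells of a type and less RNA per cell cannot be told apart.

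None of the 36 genes was undetected in the strict sense of 0 counts in all 20 samples. 18 had counts in every sample, 10 had none in 10 or more samples, and 19 had enough counts to be tested. A level is given as CPM, a gene's counts scaled to a common library total, and 3 counts in a sample were worth 0.0599 to 0.0941 CPM. Levels were concentrated in few genes: 5 lay above 10 CPM, 7 between 1 and 10 CPM, and 7 tested genes below 1 CPM. The summed level of the 36 was 755 ± 16.2 CPM in the control (SD, n = 5), of which those 5 genes (COL12A1, COL16A1, COL8A1, COL27A1 and COL18A1) held 725 ± 16.8 and the rest 29.5 ± 1.48.

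Compared per kilobase of exon, COL12A1 led the control samples with 20.6 ± 1.03 CPM per kb (SD, n = 5), above 89.9% of all tested genes. COL16A1 followed with 17.7 ± 0.857, COL8A1 with 15.1 ± 0.963, COL27A1 with 8.48 ± 0.273 and COL18A1 with 5.08 ± 0.595 CPM per kb. The control samples of COL12A1 lay wholly above those of COL16A1, while COL16A1 and COL8A1 overlapped. COL8A1, COL27A1 and COL18A1 were separated from each other and from the next gene. COL6A1 (1.35 ± 0.233) and COL9A3 (1.25 ± 0.109 CPM per kb) overlapped each other and were the last to stand clear of what came below: from COL9A2 (0.697 ± 0.194) downward, through COL1A1 (0.514), COL10A1 (0.425), COL11A2 (0.224), COL5A2 (0.196) and COL8A2 (0.167 CPM per kb), each gene overlapped its neighbour in that order.

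**Figure D1:**
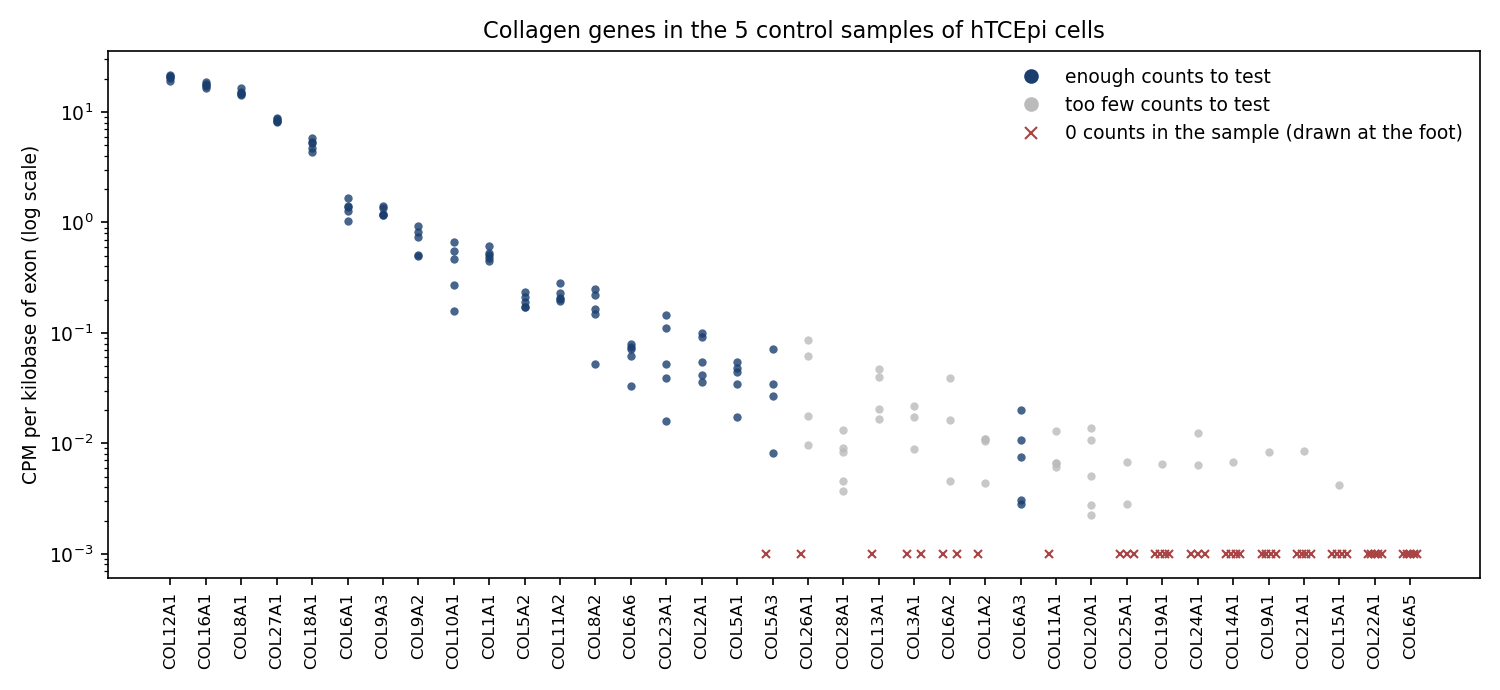
Level of each of the 36 collagen genes in the 5 control samples, as CPM per kilobase of exon on a log axis, 1 point per sample. Genes are ordered by counts per kilobase over all 20 samples. COL12A1, COL16A1, COL8A1, COL27A1 and COL18A1 stand above 4 CPM per kb in every control sample; crosses at the foot mark samples with 0 counts.

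Chains that assemble together were not present at like levels. Type I collagen, the main collagen of stroma and bone, needs the chains of both COL1A1 and COL1A2 in its usual form. COL1A1 had 0.514 ± 0.0618 and COL1A2 0.00732 ± 0.00492 CPM per kb in the control, the latter from 14 counts in 5 samples. In type VI, the beaded filament of most connective tissue, COL6A1 had 1.35 ± 0.233, COL6A2 0.012 ± 0.0166 and COL6A3 0.00885 ± 0.00708 CPM per kb. COL6A2 was at 40 counts in all 20 samples and at 0 in 10 of them. The type IX chains of cartilage showed the same unevenness, with COL9A3 and COL9A2 as above and COL9A1 at 0.00167 ± 0.00373 CPM per kb from 2 control counts. In type VIII, the collagen of the corneal endothelial basement layer (Descemet's membrane), COL8A1 had 15.1 and COL8A2 0.167 ± 0.0766 CPM per kb. The control samples of the higher chain lay wholly above those of its partner in each of these families.

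COL12A1 (chr6:75084326-75206051, minus strand, GRCh38) encodes the FACIT chain of type XII, which lies on fibril surfaces of cornea, tendon and ligament. It is shown with its start region because it had the highest level and a rise at SPARC 5 and SPARC 0.5. The 250 bases before its RefSeq start (chr6:75206054-75206303, minus strand, GRCh38.p14) hold 61.2% G and C. The capitals mark the single match to the GC box letters, searched as GGGCGG or its reverse complement CCGCCC, 218 bases before the start.
COL12A1: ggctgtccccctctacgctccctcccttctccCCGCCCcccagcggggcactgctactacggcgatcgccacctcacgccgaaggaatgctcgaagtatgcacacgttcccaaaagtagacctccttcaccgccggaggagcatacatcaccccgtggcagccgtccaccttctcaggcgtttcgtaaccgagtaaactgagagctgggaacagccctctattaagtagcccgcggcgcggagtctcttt
Those letters are in 42.6% of 35093 human promoter windows in the RefSeq table and in 19 of the 35 windows (54.3%) of the 24 members found there. A match describes the window and is no evidence of binding.

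COL12A1 stood at 266, 238, 254, 257 and 272 CPM in the control samples. At SPARC 0.05 it was at 252, 281, 268, 283 and 292 CPM, at SPARC 0.5 at 284, 292, 284, 304 and 300 CPM, and at SPARC 5 at 408, 374, 376, 383 and 380 CPM. The SPARC 0.05 samples overlapped the control, the SPARC 0.5 samples lay just above all of it, and the SPARC 5 samples lay far above every other sample. COL12A1 rose at SPARC 5 by 0.58 ± 0.03 on the log2 scale (SE; 1.49-fold; adjusted p = 3.46e-16, edgeR quasi-likelihood test with Benjamini-Hochberg adjustment over 22938 genes). Its rise at SPARC 0.5 was 0.19 ± 0.03 (adjusted p = 0.001). Between SPARC 0.5 and SPARC 5 it rose by 0.39 ± 0.03 (adjusted p = 3.66e-11), again with no overlap. At SPARC 0.05 its change of 0.10 ± 0.03 did not pass (adjusted p = 0.281). It was higher than the control mean in 4 of 5 samples at SPARC 0.05. Its share of the CPM of the 36 genes went from 34.1% ± 1.19 in the control to 36.6% ± 1.52, 38.0% ± 0.79 and 42.2% ± 0.66 (SD, n = 5) over the 3 doses.

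**Figure D2:**
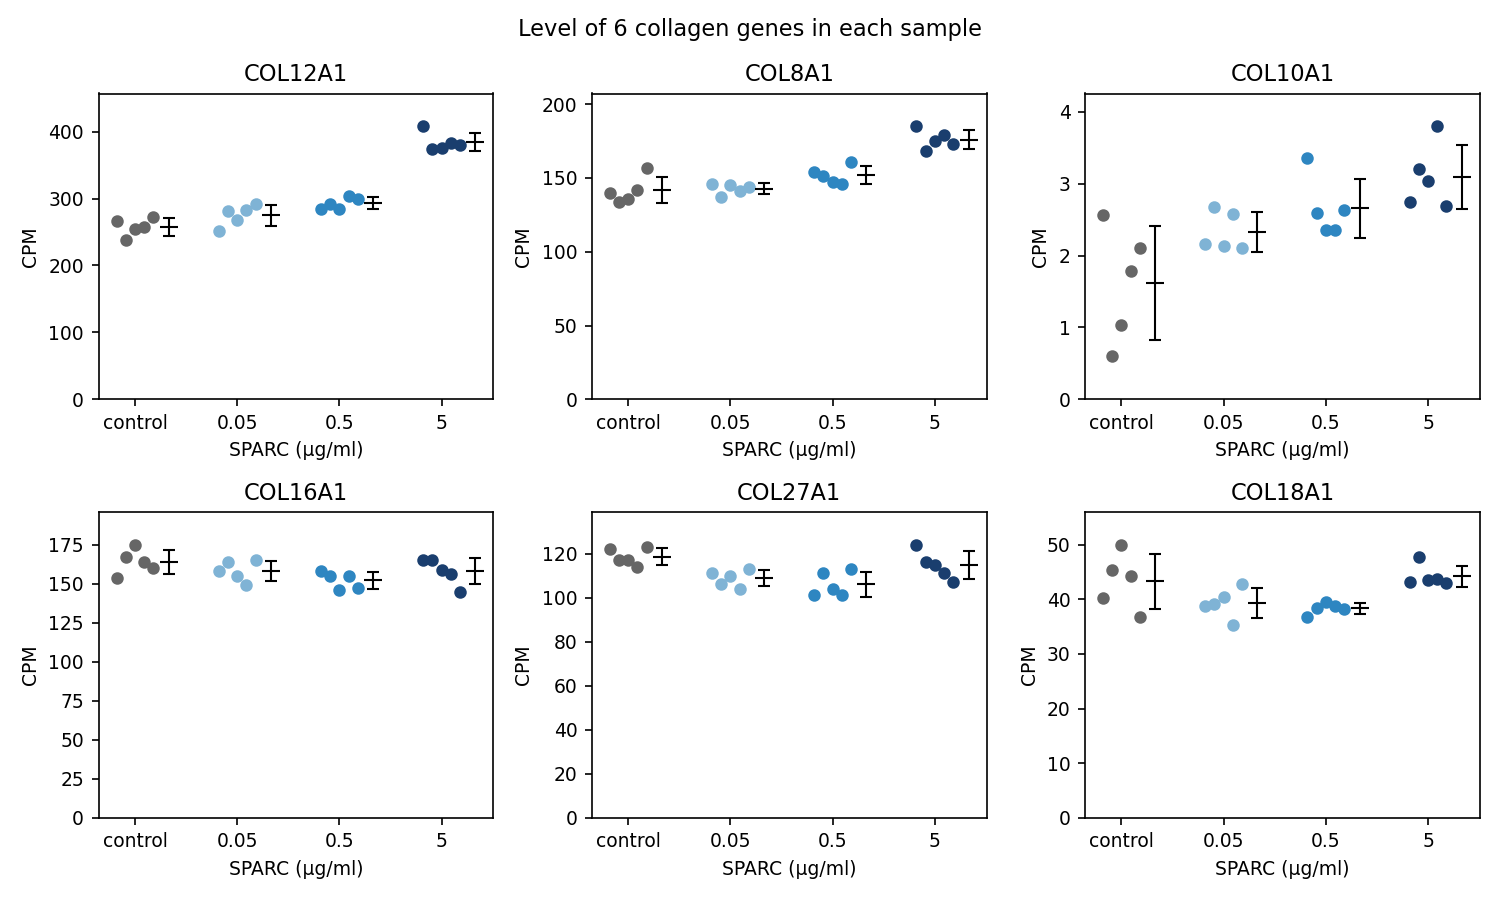
CPM of 6 collagen genes in each sample by SPARC dose in µg/ml, 1 point per sample, with the mean and SD of each group beside the points. COL12A1, COL8A1 and COL10A1 have all SPARC 5 samples above all control samples; COL16A1, COL27A1 and COL18A1 dip at SPARC 0.5 and overlap the control at SPARC 5.

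At SPARC 5, 3 of the 19 tested collagen genes rose (COL12A1, COL8A1 and COL10A1) and 0 fell. Over all 22938 tested genes 7.04% rose and 4.58% fell, beside 15.8% of the 19 that rose here, a share resting on 3 genes. For the count of 0, edgeR found 0 members lower and 5 higher at an unadjusted p under 0.05. The share of all tested genes at that unadjusted threshold is not given, here or for the other comparisons. DESeq2 and limma-voom also called 3 rises and 0 falls, DESeq2 giving an adjusted p to 15 members. With libraries scaled by their total alone, without composition factors, the split was 3 rises and 2 falls (COL16A1 and COL27A1). The median log2 change of the 19 was 0.17, with 13 above 0, beside −0.01 over all tested genes. In the 3 genes that rose, the control and SPARC 5 samples did not overlap. That describes the samples that gave the calls and is no added support for them. The share of all tested genes without such overlap is not given here. The summed level of the 36 genes was 731 to 775 CPM in the control samples and 884 to 954 CPM at SPARC 5 (910 ± 26.3, SD, n = 5), against 752 ± 18.7 at SPARC 0.05 and 771 ± 13.5 at SPARC 0.5.

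Of the network-forming short chains, all 3 were tested and 2 rose at SPARC 5. COL8A1 (chr3:99638475-99799226) was at 140, 134, 136, 142 and 157 CPM in the control. It was at 146, 137, 145, 141 and 144 CPM at SPARC 0.05, at 154, 151, 147, 146 and 161 CPM at SPARC 0.5, and at 185, 168, 175, 179 and 173 CPM at SPARC 5. All 5 SPARC 5 samples lay above all samples of the other groups, while control replicate 5 and the SPARC 0.5 samples overlapped. COL8A1 rose at SPARC 5 by 0.31 ± 0.03 (1.24-fold, adjusted p = 8.56e-14) and between SPARC 0.5 and SPARC 5 by 0.21 ± 0.03 (adjusted p = 1.66e-07). Its change at SPARC 0.5 was 0.10 ± 0.03 (adjusted p = 0.0686) and at SPARC 0.05 0.01 ± 0.03 (adjusted p = 0.972). With a replicate block, or without control replicate 5, COL8A1 was called as a rise at SPARC 0.5, though not in DESeq2 or limma-voom. Its partner COL8A2 was at 1.17, 0.242, 0.689, 0.764 and 1.03 CPM in the control and at 0.4, 0.374, 0.478, 0.441 and 2.0 CPM at SPARC 5. SPARC 5 replicate 5 was above all control samples, and the other 4 lay below all control samples except replicate 2. COL8A2 changed by −0.08 ± 0.40 at SPARC 5, an interval of −0.86 to 0.71 that includes the size of the COL8A1 rise, and by −0.87 ± 0.40 (adjusted p = 0.173) without SPARC 5 replicate 5. The difference between the partners was not tested.

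COL10A1 encodes the short chain of type X, known from the hypertrophic zone of growth-plate cartilage. RefSeq lists 3 starts for it, and gene-level counts do not tell which was used. The most downstream start is shown as an example. Its 250 bases (chr6:116126133-116126382, minus strand, GRCh38.p14) carry 1 match to the TATA box letters, searched as TATAAA or its reverse complement TTTATA and marked in capitals, 31 bases before the start. Of the other starts, one window (chr6:116158773-116159022) carries 2 matches, 30 and 22 bases before its start, and the other (chr6:116217145-116217394) carries 0.
COL10A1: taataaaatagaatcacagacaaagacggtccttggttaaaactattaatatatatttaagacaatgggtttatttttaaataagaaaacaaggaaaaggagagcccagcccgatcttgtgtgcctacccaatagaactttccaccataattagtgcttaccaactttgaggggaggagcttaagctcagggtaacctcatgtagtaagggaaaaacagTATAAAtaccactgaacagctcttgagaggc
This window has 37.6% G and C, against 61.2% for COL12A1. The TATA letters are in 10.7% of all windows and in 6 of the 35 windows of members (17.1%). The COL12A1 window above has no match to them.

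COL10A1 was at 2.56, 0.604, 1.03, 1.79 and 2.11 CPM in the control samples, spread over a wider relative range than any other called member. It was at 2.16, 2.68, 2.13, 2.58 and 2.1 CPM at SPARC 0.05, at 3.36, 2.59, 2.36, 2.36 and 2.64 CPM at SPARC 0.5, and at 2.74, 3.21, 3.04, 3.8 and 2.69 CPM at SPARC 5. Control replicates 2 and 3 were the lowest of the 20 samples, and control replicate 1 reached into the range of SPARC 0.5. The lowest SPARC 5 sample was just above the highest control sample. COL10A1 rose at SPARC 5 by 0.93 ± 0.20 (1.91-fold, adjusted p = 0.000397). With 1 sample left out at a time the rise at SPARC 5 ran from 0.73 to 1.16 and passed in all 10 fits. At SPARC 0.5 it rose by 0.71 ± 0.20 (adjusted p = 0.0404), a call lost in 8 of 10 fits that left out 1 sample, with an adjusted p of up to 0.2 without control replicate 2. It passed there only without control replicate 1 or without control replicate 5.

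All 3816 exon bases of COL10A1 lie within NT5DC1, a gene read from the opposite strand, with 0 exon bases shared. Whether the counting used strand is not given in the sources used here. NT5DC1 was at 24.4 ± 0.82 CPM in the control and 23.9 ± 0.19 CPM at SPARC 5, a change of −0.03 ± 0.06 (adjusted p = 0.806). Of 3 cartilage markers, SOX9 rose at SPARC 5 from 31.7 ± 2.81 to 42.0 ± 1.93 CPM (adjusted p = 2.45e-09, edgeR quasi-likelihood test). MATN3 rose from 4.2 ± 0.592 to 5.56 ± 0.344 CPM (adjusted p = 0.0316, same test), and ACAN was too low to test (0.0758 to 0.209 CPM). The summed level of these 3, most of it SOX9, was 32.7 to 39.1 CPM in the control samples and 46.3 to 50.0 CPM at SPARC 5. COL2A1, the main cartilage collagen, was at 0.433 ± 0.196 CPM in the control and 0.509 ± 0.243 CPM at SPARC 5, a change of 0.22 ± 0.44 that did not pass. The part of these genes in the COL10A1 result was not tested.

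At SPARC 0.5, 2 of 19 rose (COL12A1 and COL10A1) and 2 fell (COL27A1 and COL16A1), where 1.36% of all tested genes rose and 0.894% fell. The calls together made up 21.1% of the 19. The median change of the 19 was −0.11, with 8 above 0, beside 0.00 over all tested genes. COL27A1 (chr9:114155560-114312511) is a fibrillar chain known from cartilage and developing epithelia. It was at 122, 117, 117, 114 and 123 CPM in the control, at 111, 106, 110, 104 and 113 CPM at SPARC 0.05, at 101, 111, 104, 101 and 113 CPM at SPARC 0.5, and at 124, 116, 115, 111 and 107 CPM at SPARC 5. The samples of both lower doses lay below all control samples, and those of SPARC 5 spread from below the control samples to just above them. COL27A1 fell at SPARC 0.5 by 0.16 ± 0.03 on the log2 scale (adjusted p = 0.00231). At SPARC 0.05 its change of −0.12 ± 0.03 missed the threshold (adjusted p = 0.0927), and at SPARC 5 it was −0.05 ± 0.03 (adjusted p = 0.386).

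COL16A1 (chr1:31652247-31704319), a FACIT chain of type XVI found near basement membranes and fibrils, was at 154, 167, 175, 164 and 160 CPM in the control. It was at 158, 164, 155, 149 and 165 CPM at SPARC 0.05, at 158, 155, 146, 155 and 147 CPM at SPARC 0.5, and at 165, 165, 159, 156 and 145 CPM at SPARC 5. Every group overlapped the control, and the SPARC 0.5 samples lay at its lower edge. COL16A1 fell at SPARC 0.5 by 0.11 ± 0.03 on the log2 scale (adjusted p = 0.0481). The call was lost in 7 of 10 fits that left out 1 sample, with an adjusted p of up to 0.222 without control replicate 3. It passed only without control replicate 1, control replicate 5 or SPARC 0.5 replicate 1. Of its exon bases, 21.4% lie within AC114488.2, an antisense gene.

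COL18A1 (chr21:45405137-45513720) encodes type XVIII, a multiplexin (a heparan sulfate proteoglycan core of basement membranes) and the parent of endostatin. It was at 40.2, 45.4, 50.0, 44.3 and 36.8 CPM in the control, at 38.8, 39.1, 40.5, 35.3 and 42.8 CPM at SPARC 0.05, at 36.8, 38.5, 39.6, 38.8 and 38.3 CPM at SPARC 0.5, and at 43.1, 47.7, 43.5, 43.8 and 43.0 CPM at SPARC 5. The control samples spread widely enough to overlap every dose, and the SPARC 5 samples lay above all SPARC 0.5 samples. COL18A1 changed by −0.17 ± 0.05 at SPARC 0.5 (adjusted p = 0.0542) and by 0.03 ± 0.05 at SPARC 5 (adjusted p = 0.831). In some alternative fits, among them a replicate block, it was called as a fall at SPARC 0.5, though not in DESeq2 or limma-voom. Between SPARC 0.5 and SPARC 5 it rose by 0.20 ± 0.05 (adjusted p = 0.00844). That call was lost without SPARC 5 replicate 2 (adjusted p = 0.0597), the highest sample of its group, and with SPARC 5 replicates 2 and 5 both left out (adjusted p = 0.0913). Of the COL18A1 exon bases, 55.0% lie within SLC19A1 on the opposite strand, with 1401 exon bases shared. SLC19A1 fell from 141 ± 4.35 CPM in the control to 125 ± 5.59 CPM at SPARC 5 (log2 change −0.17 ± 0.03, adjusted p = 1.08e-05), and its part in the COL18A1 values was not tested.

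The G and C content of the longest transcript differed between the genes that rose at SPARC 5 and COL16A1, COL27A1 and COL18A1. It was 46.3% for COL12A1, 46.8% for COL8A1 and 45.5% for COL10A1, the 3 that rose. It was 62.8% for COL16A1, 61.3% for COL27A1 and 67.2% for COL18A1. The split did not hold for all tested members, as COL6A6 (44.7%) and COL5A2 (47.9%) did not pass at SPARC 5. Across 15098 genes within each library, the correlation of a sample's level against the mean of all samples with G and C content was 0.143 ± 0.118 in the control (SD, n = 5), −0.042 ± 0.037 at SPARC 0.05, −0.068 ± 0.05 at SPARC 0.5 and −0.042 ± 0.096 at SPARC 5. Genes are not independent replicates, so these are descriptions. With offsets for G and C content and length, the SPARC 0.5 changes were −0.06 for COL16A1 (adjusted p = 0.382) and −0.12 for COL27A1 (adjusted p = 0.0601), and neither fall passed. COL12A1, COL8A1 and COL10A1 kept their rises at SPARC 5 in that fit.

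**Figure D3:**
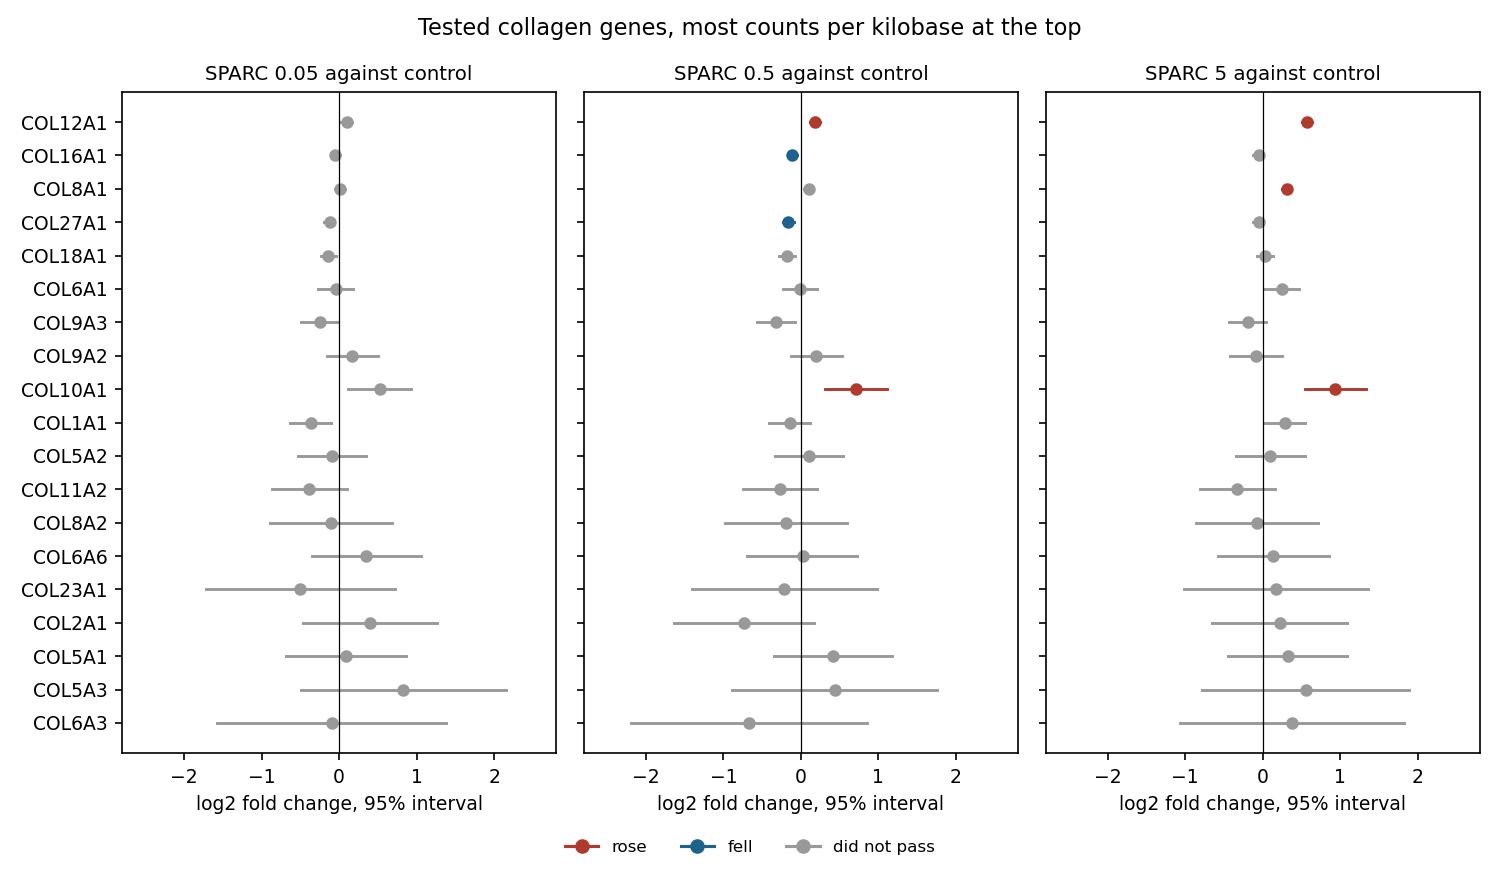
Log2 fold changes of the 19 tested collagen genes against control at each SPARC dose, with 95% intervals as lines. COL12A1, COL8A1 and COL10A1 rose at SPARC 5, 2 rose and 2 fell at SPARC 0.5 and none passed at SPARC 0.05. Intervals mostly widen toward the bottom, though not gene by gene.

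At SPARC 0.05, 0 of 19 members rose or fell by edgeR's test, where 0.187% of all genes rose and 0.0785% fell. At an unadjusted p under 0.05, 2 members were higher (COL10A1 and COL12A1) and 4 lower (COL1A1, COL9A3, COL18A1 and COL27A1). The shares of 0.187% and 0.0785% are at an adjusted p and give no measure for this unadjusted count. limma-voom and DESeq2 also called 0, DESeq2 giving an adjusted p to only 5 members. Leaving out SPARC 0.05 replicate 1, its lowest COL12A1 sample, brought COL12A1 past the threshold. The 3 doses were all compared with the same control samples.

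Between SPARC 0.5 and SPARC 5, 5 members rose and 0 fell, where 3.31% of all genes rose and 1.49% fell. At an unadjusted p under 0.05, 7 were higher and 0 lower, with no share of all genes at that threshold given. DESeq2 and limma-voom also called 0 falls, DESeq2 giving an adjusted p to only 12 members. The 5 were COL12A1, COL8A1, COL18A1, COL1A1 and COL27A1. COL27A1 rose by 0.11 ± 0.03 (adjusted p = 0.0468), and this call was lost in 6 of 10 fits that left out 1 sample and in DESeq2 and limma-voom. Between SPARC 0.05 and SPARC 0.5 edgeR called 0 members in either direction, where 0.157% of all genes rose and 0.0218% fell. By unadjusted p under 0.05, 2 were higher (COL8A1 and COL12A1) and 1 lower (COL2A1), again with no share of all genes given. DESeq2 and limma-voom called 0, DESeq2 giving an adjusted p to only 7 members.

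A linear trend over the 4 groups, scored 0 to 3 by dose step, gave 3 rises and 0 falls among members, beside 7.32% and 4.81% of all genes. The slopes were 0.18 ± 0.01 for COL12A1 (adjusted p = 3.54e-16), 0.10 ± 0.01 for COL8A1 (adjusted p = 1.28e-14) and 0.30 ± 0.06 for COL10A1 (adjusted p = 0.000302) per step on the log2 scale. Falling slopes numbered 1 at an unadjusted p under 0.05 (COL16A1), 0 in DESeq2 and limma-voom, and 2 (COL16A1 and COL27A1) with libraries scaled by their total alone. For the trend DESeq2 gave an adjusted p to 16 members. The group means in order of dose were 257, 275, 293 and 384 CPM for COL12A1, 142, 142, 152 and 176 CPM for COL8A1, and 1.62, 2.33, 2.66 and 3.1 CPM for COL10A1.

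Among the fibrillar chains, 7 of 11 were tested and none passed at SPARC 5. COL1A1 (chr17:50183289-50201632) was at 5.21, 4.65, 4.43, 5.99 and 4.95 CPM in the control, at 3.33, 4.76, 4.26, 3.41 and 3.71 CPM at SPARC 0.05, at 5.46, 5.87, 4.29, 4.39 and 2.9 CPM at SPARC 0.5, and at 5.7, 5.52, 6.0, 6.55 and 7.13 CPM at SPARC 5. The SPARC 5 samples were all above the control mean and overlapped the control range at its top, and the SPARC 0.05 samples were the lowest as a group. COL1A1 changed by 0.29 ± 0.13 at SPARC 5 (adjusted p = 0.16) and by −0.37 ± 0.14 at SPARC 0.05 (adjusted p = 0.312). Between SPARC 0.5 and SPARC 5 it rose by 0.44 ± 0.13 (adjusted p = 0.0333), a call lost in 6 of 10 fits that left out 1 sample, with an adjusted p of up to 0.24 without SPARC 0.5 replicate 5. It was also lost with SPARC 5 replicates 2 and 5 both left out (adjusted p = 0.146).

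Of the other tested fibrillar chains, COL27A1 is given above with 101 to 124 CPM over all samples, and the remaining 5 were below 2 CPM in every sample of the control and SPARC 5. COL5A2, a type V chain that sits in the core of type I fibrils of the cornea, was at 1.27 to 1.76 CPM in the control and 1.33 to 1.93 CPM at SPARC 5, and changed by 0.10 ± 0.22. COL11A2, a cartilage fibril chain, was at 1.31 to 1.92 CPM and 0.717 to 1.72 CPM in those groups, and changed by −0.33 ± 0.25. COL5A1 (0.32 ± 0.39), COL5A3 (0.56 ± 0.68) and COL2A1 had standard errors at SPARC 5 as large as or larger than their changes. COL2A1 was the one tested member with a fall of over 1 log2 unit in any comparison: −1.13 ± 0.45 between SPARC 0.05 and SPARC 0.5, which did not pass (adjusted p = 0.504). COL1A2 (74 counts in all 20 samples), COL11A1 (57), COL3A1 (53) and COL24A1 (21) were not tested. COL3A1, the chain of pliable connective tissue and wounds, had 0 counts in 8 samples.

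Among FACIT chains, 4 of 10 were tested: COL12A1 and COL16A1 above, and the type IX chains COL9A3 and COL9A2. COL9A3 was at 5.63 to 6.77 CPM in the control, 4.59 to 6.44 CPM at SPARC 0.05, 3.86 to 5.87 CPM at SPARC 0.5 and 5.01 to 5.65 CPM at SPARC 5. Its lower dose groups lay mostly below the control, with a change at SPARC 0.5 of −0.32 ± 0.12 that did not pass (adjusted p = 0.171). COL9A2 ranged from 2.08 to 4.15 CPM over the 20 samples and changed by −0.09 ± 0.17 at SPARC 5. The 6 not tested were COL20A1 (52 counts in all samples), COL19A1 (22), COL14A1 (14), COL9A1 (11), COL21A1 (10) and COL22A1 (5). COL14A1, the close relative of type XII on the same fibrils, had 0 counts in 16 of 20 samples.

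In the beaded-filament group COL6A1 (chr21:45981737-46005050) led. It was at 6.83, 7.52, 8.94, 7.32 and 5.49 CPM in the control, at 8.29, 5.12, 7.32, 7.46 and 7.02 CPM at SPARC 0.05, at 7.69, 6.84, 7.23, 8.01 and 6.14 CPM at SPARC 0.5, and at 7.09, 7.89, 10.3, 8.01 and 9.63 CPM at SPARC 5. SPARC 5 replicates 3 and 5 were the highest of the 20 samples, and the rest overlapped the control. COL6A1 changed by 0.25 ± 0.11 at SPARC 5 (adjusted p = 0.161). COL6A6 and COL6A3, other type VI chains, changed by 0.14 ± 0.36 and 0.38 ± 0.74. COL28A1 (105 counts), COL6A2 (40) and COL6A5 (3) were not tested. COL28A1, with the most counts of any gene below the filter, had at least 1 count in all 20 samples, with 9 counts in the 5 control samples and 31, 42 and 23 counts in the groups of rising dose.

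The remaining roles had low counts. Of the transmembrane collagens COL23A1 was tested and COL13A1 (64 counts) and COL25A1 (24) were not. COL23A1 was at 0.195, 0.0604, 0.418, 0.147 and 0.543 CPM in the control, at 0.146, 0.203, 0.104, 0.299 and 0.214 CPM at SPARC 0.05, at 0.126, 0.445, 0.0399, 0.382 and 0.192 CPM at SPARC 0.5, and at 0.16, 0.78, 0.239, 0.275 and 0.111 CPM at SPARC 5. Its samples overlapped in every pair of groups, and the change at SPARC 5 was 0.17 ± 0.60. COL13A1, a cell-surface collagen, had 26 counts in the control samples, and its mean of 0.147 ± 0.112 CPM there was 0.0409 ± 0.0409 CPM at SPARC 5, both with samples at 0. COL15A1, the other multiplexin, had 8 counts in 3 samples. COL26A1, a collagen outside these classes with 53 counts in all, was at 0.0557, 0.0302, 0.197, 0 and 0.272 CPM in the control. It was at 0.0584, 0.0253, 0.156, 0.0599 and 0.19 CPM at SPARC 0.05, at 0, 0.105, 0.0399, 0.0954 and 0 CPM at SPARC 0.5, and at 0, 0, 0, 0 and 0.111 CPM at SPARC 5. With no filter on counts, edgeR called 0 of the 17 untested members in the 6 comparisons, the smallest adjusted p being 0.278. In that fit 3 of their values had an unadjusted p under 0.05, among them COL28A1 at SPARC 0.5 (1.92 ± 0.90, adjusted p = 0.409), and DESeq2 gave an adjusted p to 0 of them.

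Genes that make, process and bind collagen were set beside the members at SPARC 5. Over all tested genes 7.04% rose and 4.58% fell, the shares to hold beside each count. The lists were chosen with earlier results of these data known. Among the 8 collagens of types IV, VII and XVII, 4 rose and 1 fell, led by COL4A1 and COL7A1, with COL4A6 as the fall (−0.09 ± 0.03, adjusted p = 0.048, lost in 7 of 10 fits leaving out 1 sample). Of 29 genes of modification, folding, secretion and processing, 25 were tested, 7 rose and 1 fell, with a median log2 change of 0.05 beside −0.01 over all genes. The rises of smallest p were TLL1, a protease that trims procollagen (1.58 ± 0.09, from 7.58 ± 0.989 to 22.6 ± 1.43 CPM), PLOD2, a lysyl hydroxylase (0.30 ± 0.03), and P4HA2, a prolyl hydroxylase subunit (0.44 ± 0.07). The rise of PCOLCE, an enhancer of procollagen cleavage (0.48 ± 0.17, adjusted p = 0.0417), was lost in 8 of 10 fits leaving out 1 sample, with an adjusted p of up to 0.127 without SPARC 5 replicate 3. The chaperone SERPINH1, which binds the collagen helix, was at 390 ± 15.3 and 395 ± 18.3 CPM and did not pass. TMEM38B, an ion channel of the endoplasmic reticulum, was the fall (−0.19 ± 0.07), lost in 6 of 10 fits leaving out 1 sample.

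Of 5 cross-linking oxidases, LOX (0.53 ± 0.14) and LOXL2 (0.42 ± 0.09) rose and 3 did not pass. For this list and those that follow, 7.04% of all tested genes rose and 4.58% fell. Of 10 tested collagen receptors, 4 rose and 6 did not pass. The rise of ITGA1, an integrin collagen receptor subunit (0.46 ± 0.14, adjusted p = 0.0183), was lost in 5 of 10 fits leaving out 1 sample, with an adjusted p of up to 0.148 without SPARC 5 replicate 5. ITGA2 (0.37 ± 0.03) and ITGB1 (0.21 ± 0.02), whose products pair as an epithelial collagen receptor, and MRC2, which takes up collagen fragments (0.40 ± 0.05), had the smallest p. Of 15 fibril-binding proteoglycans and glycoproteins, 6 were tested and 4 rose, led by TGFBI (1.06 ± 0.02), FN1 (1.88 ± 0.06) and THBS1 (from 3420 ± 334 to 9000 ± 440 CPM). Of the stromal proteoglycans of the same list, OGN was tested and did not pass (1.93 ± 0.297 CPM in the control and 2.05 ± 0.483 CPM at SPARC 5), and PRELP (70 counts in all samples), DCN, BGN, LUM, FMOD and KERA (0 to 23 counts each) were not tested. The SPARC gene itself had 104 counts in all samples; the added protein does not enter these counts. Of 6 tested collagenases and gelatinases, MMP14, which cleaves fibrillar collagen at the cell surface, rose (0.28 ± 0.03) and 5 did not pass.

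**Figure D4:**
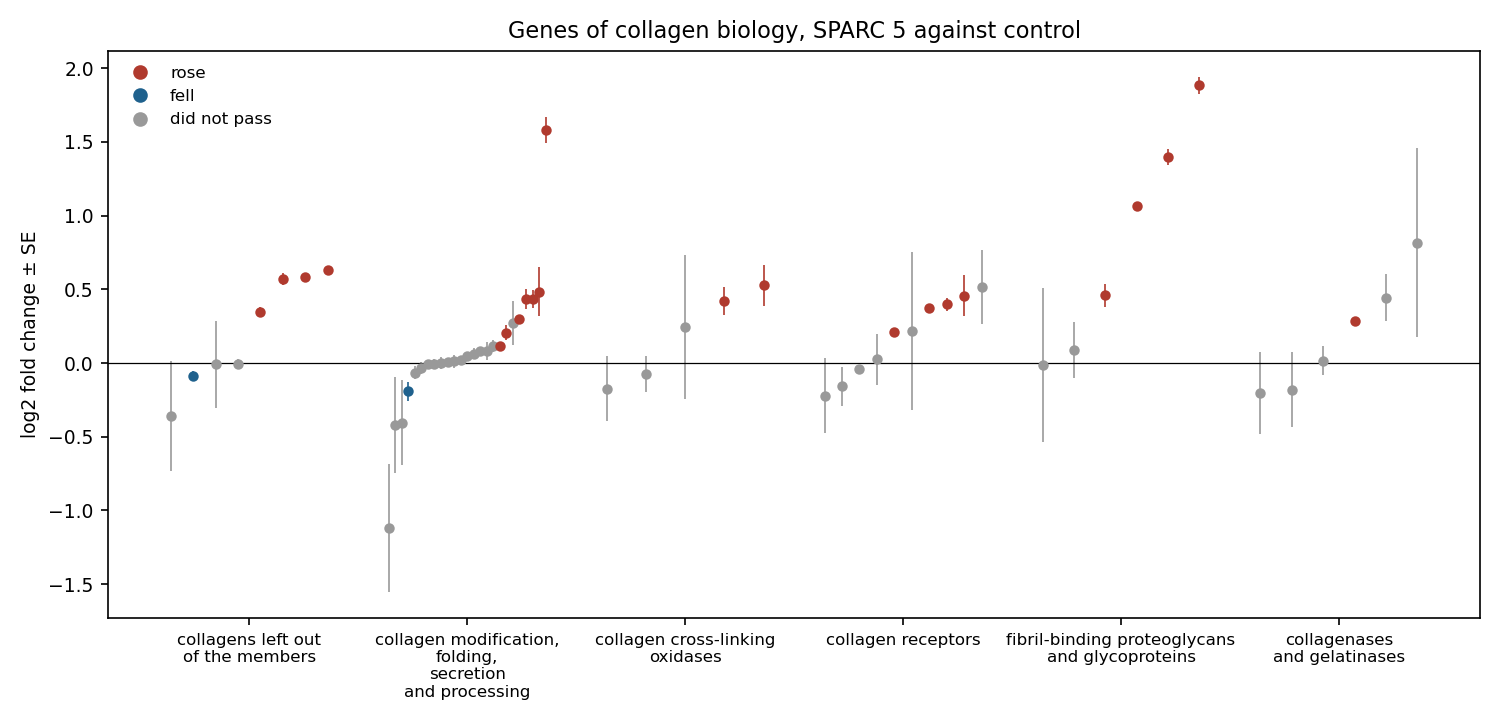
Log2 fold change at SPARC 5 against control, with its standard error, for tested genes of 6 lists of collagen biology. The rises include TLL1 at 1.58, FN1 at 1.88 and the basement-membrane chain COL4A1 at 0.63; most modification and folding genes lie near 0.

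In the authors' deposited tables of comparisons, 12 of the 36 members are listed. At SPARC 5 those tables give log2 changes of 0.58 for COL12A1, 0.32 for COL8A1 and 1.11 for COL10A1 with adjusted p under 0.05, and 0 falls, by the authors' own fit. At SPARC 0.5 the authors' deposited table has 2 rises and 2 falls among the 12, and at SPARC 0.05 none.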

How the data were processed

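RNA of 20 samples was sequenced after ribosomal depletion, per the labels' protocols. The authors deposited whole read counts per gene. Per the submitters' processing notes the tools included STAR 2.7.9a, featureCounts 2.0.3, Salmon 1.5.2, edgeR and limma with GRCh38. Their annotation release and strand setting are not given in the labels, notes or headers used here. The authors' deposited comparison tables hold log2 fold changes and adjusted p-values and were only quoted.

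Of 60871 table entries, 168 identifiers on 368 entries were repeated with equal counts and kept once. Positions and exon lengths came from GENCODE 29, promoter sequences from RefSeq (GRCh38.p14). Counts were tested in R 4.3.3 with edgeR 4.0.16: filterByExpr at a minimum count of 10, TMM factors, 1 quasi-likelihood model of the 4 group means over all 20 samples, robust, with Benjamini-Hochberg adjustment over 22938 genes and calls at an adjusted p under 0.05. CPM used the same factors. Errors of fold changes are SE, and 95% intervals are 1.96 SE to each side. Alternatives were DESeq2 1.42.0, limma-voom (3.58.1), other scaling and filters, the 2 groups alone, a replicate block, offsets for GC and length, and each sample left out in turn. Leaving out SPARC 5 replicates 2 and 5 together was chosen after seeing the data.

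Every member is named. Values of each sample are given for members called against control or in the trend and for the most abundant of each role, and also for COL1A1, chosen after its values were seen; per companion list up to 3 rises and 3 falls of smallest p are named, and genes beyond that were chosen after their values were seen. The members and lists were chosen with earlier results of these data known. The test was run on simulated counts with the same spread for every gene, a simpler setting than these data. Its outcome is not given here and lends no support to the calls. Counts of replicates differed by more than counting noise in all 40 pairs within groups (chi-square per gene 4.09 to 9.55, where noise alone gives about 1), so no sample was counted as a duplicate. Depth was 31955358 to 50112286 counts a sample. Marker lists of 4 other cell types had 6 tested genes, none of which passed against control at any dose. In the trend over dose 1 fell: PECAM1 of vascular endothelium, with a slope of −0.334 and 0.848 CPM in the control and 0.436 CPM at SPARC 5. The summed levels of these lists over all samples were 14.6 to 20.3 CPM for corneal endothelium, 0.239 to 1.48 for vascular endothelium, 2.32 to 3.95 for melanocytes and 0.551 to 1.88 for immune cells.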

Additional observations from a re-analysis of the deposited data

Results flagged for a closer look

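In 76 groups of 5 samples (19 tested genes in 4 groups), the gap of the highest or lowest sample to its nearest neighbour was over 0.71 of the group's range 9 times, where chance gives about 1 in 20 groups. COL12A1 stood at 408 CPM in SPARC 5 replicate 1, with the other samples at 374 to 383, and COL10A1 at 3.36 CPM in SPARC 0.5 replicate 1, with the others at 2.36 to 2.64. SPARC 5 replicate 2 was the highest of its group for COL18A1 (47.7 CPM, others 43.0 to 43.8), COL9A2 (3.99 CPM, others 2.32 to 2.69) and COL23A1 (0.78 CPM, others 0.111 to 0.275). COL8A2 was at 2.0 CPM in SPARC 5 replicate 5, with the others at 0.374 to 0.478. COL9A3 was at 6.44 CPM in SPARC 0.05 replicate 4 (others 4.59 to 4.91), and COL6A3 at 0.358 CPM in SPARC 0.5 replicate 4 (others 0 to 0.0999). COL5A2 was low at 0.941 CPM in SPARC 0.5 replicate 1, with the others at 1.66 to 1.83.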

How the results depend on the processing

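Of 114 fold changes (19 tested members in 6 comparisons), the 15 that passed kept their direction under every alternative run. Of the 99 that did not pass, 37 changed sign under at least 1 alternative, none of them passing there. For the 17 fold changes followed in full (the 15 and those of COL18A1 at SPARC 0.5 and COL1A1 at SPARC 5), of 379 recomputed values 328 kept their side of the threshold, 45 lost a call and 6 gained one. With libraries scaled by total alone, 2 members fell at SPARC 5 and 2 in the trend, where the count was 0. At SPARC 0.5, the rises numbered 1 with only the 2 groups compared, and the falls 1 in DESeq2, 0 with GC and length offsets and 1 with the replicate block and those offsets together. Between SPARC 0.5 and SPARC 5, 3 members rose with GC and length offsets and 3 with SPARC 5 replicates 2 and 5 left out together. Leaving out 1 sample at a time gave 1 to 3 rises and 1 to 3 falls at SPARC 0.5, 0 to 1 rise at SPARC 0.05, 3 to 5 rises between SPARC 0.5 and SPARC 5, and 3 to 4 rises and 0 to 1 fall in the trend. The causes were not tested. The 3 rises at SPARC 5 passed in each setting run.

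Replicate numbers were not taken to pair the samples, since the labels state no pairing. Over 30 pairs of the same number the correlation of deviations from group means was −0.035 to 0.044 (median 0.015, against −0.001 over 120 pairs of different numbers). Correlations this small do not settle whether the samples were paired. In the data, 11 of 20 samples were closest to their own number, where an even spread over the numbers gives 4, a hint of pairing that the labels do not state. With the replicate block, the counts at SPARC 0.5 were 3 rises (COL8A1 added) and 3 falls (COL18A1 added). Depth limits the 17 members below the count filter, whose means over all 20 samples were at most 0.136 CPM. With no filter their standard errors at SPARC 5 were 0.91 or more on the log2 scale (none given for COL6A5).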
